A study of Mus musculus with 6 samples.

Results

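The 52 genes described here encode regulators and machinery of the cell division cycle, named by symbol from general knowledge of the cycle and found in the deposited values through their Ensembl identifiers. All 52 were among the 29275 genes listed, and they were divided by the phase in which each product acts into 9 genes of G1 control, 14 of S phase and 29 of G2 and mitosis. RNA came from primary mouse Sertoli cells, the somatic cells that support germ cells in the seminiferous tubule. All cultures were grown in DMEM/F12 with fetal serum and epidermal growth factor, and the controls were otherwise untreated. The 6 libraries were biological replicates 1 to 3 from wild-type (WT) mice and 1 to 3 from mice labelled Arhgef15 cKO, a conditional deletion of a guanine nucleotide exchange factor gene in Sertoli cells. The sources used here do not name the Cre line, the deleted exons, the strain, the age of the mice or the time in culture. They also do not say whether cultures came from separate or pooled animals. The p-values thus rest on the spread among these 6 libraries, which may not be the spread between animals.

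Progress through the cycle is driven by cyclin-dependent kinases. D- and E-type cyclins release E2F factors at the end of G1, E2F factors switch on the replication genes of S phase, and a second wave of genes, controlled through B-MYB, FOXM1 and the MuvB complex, is transcribed in G2 and mitosis. Sertoli cells divide in fetal and early postnatal life and stop at puberty, and transcripts of these genes are widely used as a readout of how many cells in a sample are cycling. A lower level in bulk RNA can mean fewer cycling cells or less transcript in each, and these cannot be told apart here.

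The libraries held 16790000 to 20320000 fragments. Each member value rested on 25 to 10157 fragments, with a median of 1213.5. Levels are given in FPKM, fragments scaled for exonic length and library depth, in the order of replicates 1, 2 and 3. Arhgef15 itself was listed at 0.123, 0.0237 and 0.349 FPKM in the WT libraries. In those labelled cKO it was at 0.501, 0.322 and 0.338 FPKM, and so no lower. All these values lay below 1 FPKM and did not enter the test between genotypes, so they cannot show whether the gene was deleted. Reads outside the deleted exons would also not show a deletion, and "cKO" below means only that a library carries this label. WT replicate 3 stood apart from the other WT libraries. Across all genes tested, its log2 values correlated with those of WT replicates 1 and 2 at r = 0.86 and 0.90. WT replicates 1 and 2 correlated at 0.96 with each other, and WT replicate 3 with the cKO libraries at 0.92 to 0.95. Markers of the labelled cell type were present and uneven. The Sertoli marker Sox9 lay at 5.97, 5.10 and 20.2 FPKM in the WT and 22.3, 24.1 and 35.6 FPKM in the cKO libraries. Wt1 lay at 2.75, 4.17 and 14.98 FPKM in the WT and 17.4, 14.9 and 24.98 FPKM in the cKO libraries. Fshr was listed at 0 in WT replicates 1 and 2, and Amh reached no more than 1.17 FPKM.

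The promoters were read for the short motifs through which the phases are known to be timed. RefSeq promoters (build GRCm38.p6, from 250 bases before to 50 bases after the start) were matched for 41 of the 52 members, 6 of G1 control, 12 of S phase and 23 of G2 and mitosis. The 180 bases directly before the start are printed for 6 of them, the first 4 from G2 and mitosis and the last 2 from S phase, chosen to show both motif arrangements, with each match in capitals.
Cdc20 (chr4:118437344-118437523, minus strand): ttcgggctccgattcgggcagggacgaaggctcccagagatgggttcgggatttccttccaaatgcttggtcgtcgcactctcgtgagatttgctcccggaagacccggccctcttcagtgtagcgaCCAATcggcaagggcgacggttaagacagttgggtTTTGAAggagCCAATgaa
Cdk1 (chr10:69352913-69353092, minus strand): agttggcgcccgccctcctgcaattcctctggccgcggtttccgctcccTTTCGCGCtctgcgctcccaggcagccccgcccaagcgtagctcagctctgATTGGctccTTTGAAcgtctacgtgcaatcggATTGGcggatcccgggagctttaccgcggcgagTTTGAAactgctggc
Ube2c (chr2:164769749-164769928, plus strand): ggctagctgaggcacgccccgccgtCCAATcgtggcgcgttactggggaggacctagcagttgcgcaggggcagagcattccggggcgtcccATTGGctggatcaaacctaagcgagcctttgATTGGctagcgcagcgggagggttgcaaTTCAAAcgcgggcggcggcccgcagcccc
Mki67 (chr7:135716380-135716559, minus strand): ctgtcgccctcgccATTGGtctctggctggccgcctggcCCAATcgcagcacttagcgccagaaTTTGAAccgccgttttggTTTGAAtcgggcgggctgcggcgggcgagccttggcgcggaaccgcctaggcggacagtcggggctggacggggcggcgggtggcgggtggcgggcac
Mcm5 (chr8:75109329-75109508, plus strand): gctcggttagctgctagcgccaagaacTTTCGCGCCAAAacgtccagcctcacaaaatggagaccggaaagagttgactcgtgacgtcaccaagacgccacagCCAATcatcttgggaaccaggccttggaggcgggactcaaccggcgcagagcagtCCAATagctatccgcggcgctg
Mcm6 (chr1:128359706-128359885, minus strand): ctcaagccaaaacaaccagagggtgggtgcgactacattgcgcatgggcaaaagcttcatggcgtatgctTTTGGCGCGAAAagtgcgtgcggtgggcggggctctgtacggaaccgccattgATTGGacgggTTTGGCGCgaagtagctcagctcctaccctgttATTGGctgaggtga

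The capitals mark the CHR (TTTGAA), which the MuvB complex recognises, the CCAAT box (CCAAT), which NF-Y recognises, and E2F motifs (TTTCCCGC, TTTCGCGC, TTTGCCGC or TTTGGCGC), on either strand. The CHR was in the promoters of 16 of 23 genes of G2 and mitosis (69.6%), 1 of 12 of S phase and 1 of 6 of G1 control, against 20.2% of 27025 mouse genes with a promoter in the same table. The CCAAT box was in 20 of 23, 8 of 12 and 3 of 6 of the promoters, against 41.1% of all genes. Both motifs stood in 16 of the 23 promoters of G2 and mitosis, against 8.97% of all genes. The E2F motifs showed the other arrangement, with 6 of 12 promoters of S phase, 1 of 23 of G2 and mitosis and 1 of 6 of G1 control, against 2.60% of all genes. In Cdc20, the CHR began at position -18 and a CCAAT box at -53, counted on the gene's strand from the start. In Mcm5 an E2F motif on the gene's strand at -153 overlapped one on the other strand at -149. A match to these letters is a description of the sequence and not a measured binding site.

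None of the 52 members passed the test between genotypes (limma on log2(FPKM + 1), Benjamini-Hochberg adjustment over 12284 genes, threshold 0.05), where 0.0163% of all genes tested were called. All 52 had passed the filter of at least 1 FPKM in at least 3 libraries. At an unadjusted p under 0.05 there was 1 member, Cdkn2b, against 6.81% of all genes, and in 1 member, E2f1, the 3 WT and 3 cKO values did not overlap, against 11.3% of all genes. Estimates were higher in cKO libraries for 30 members and lower for 22, and this split was 24 to 28 with median-ratio scaling and also with quantile normalization. The median log2 difference, cKO minus WT, was 0.11 in G1 control, 0.04 in S phase and 0.02 in G2 and mitosis, beside 0.08 over all genes tested. The differences ran from -1.03 to 0.43, with SEs from 0.21 to 0.66 and adjusted p from 0.727 to 0.997. Their 95% intervals lay within 1 log2 unit of no difference for 31 of the 52 members, 7 of G1 control, 11 of S phase and 13 of G2 and mitosis. In simulated data each gene varied independently with its own residual SD, so shifts shared by many genes of 1 library were absent. Changes were added to log2(FPKM + 1) of genes above a minimum mean level. The test then recovered 0% of genes changed 2-fold, 71.5% of those changed 4-fold and 89.0% of those changed 8-fold.

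**Figure D1:**
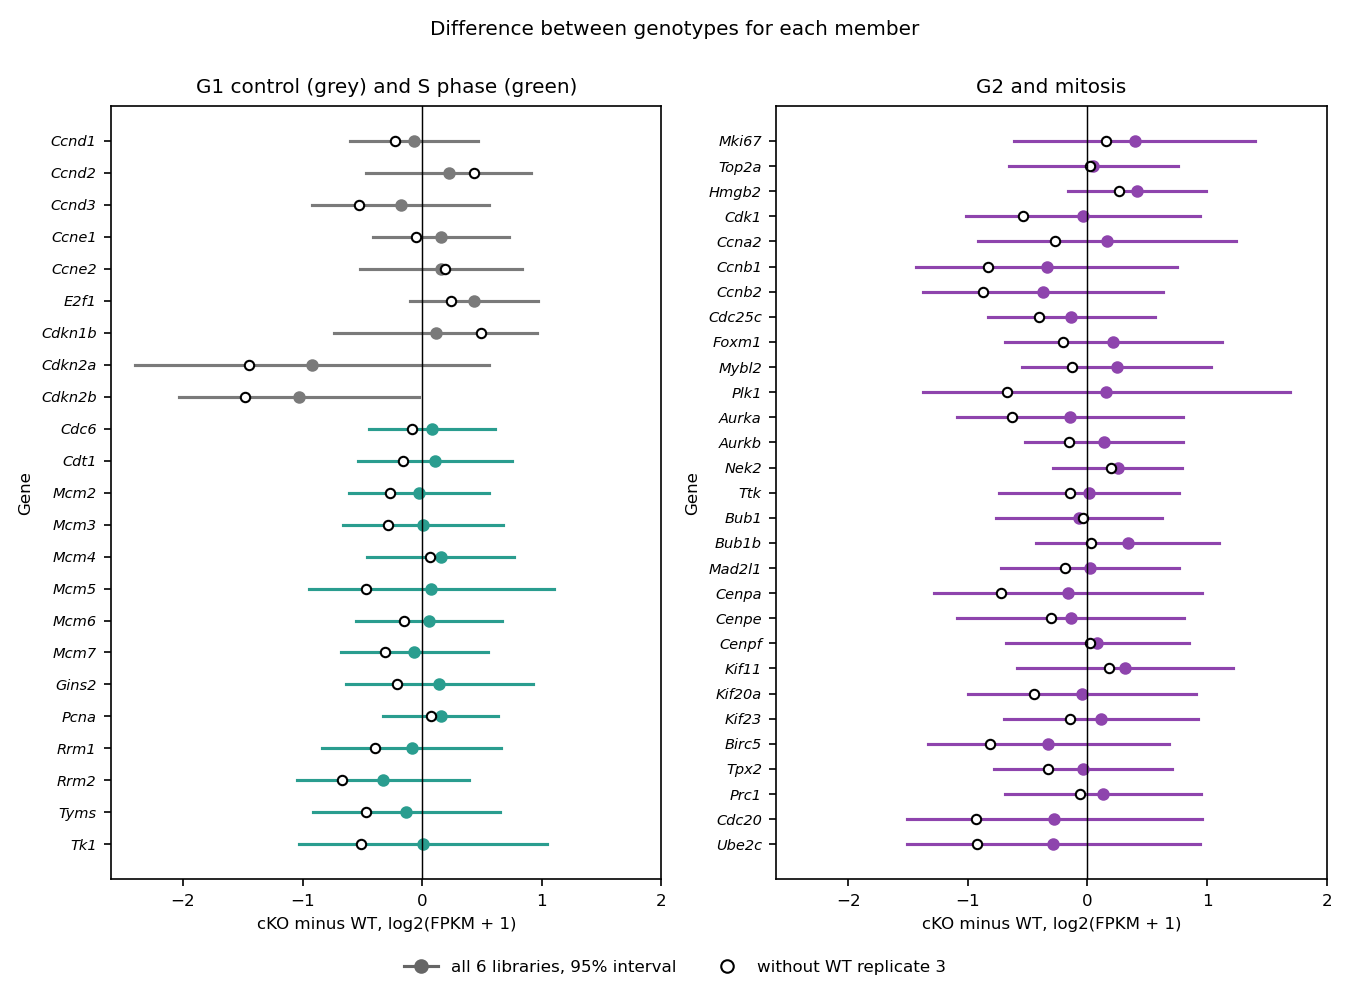
Difference between genotypes (cKO minus WT, log2(FPKM + 1), horizontal axis) for each of the 52 members (vertical axis); filled points with lines give the estimate and 95% interval from all 6 libraries, and open points the estimate without WT replicate 3. The filled points lie between -1.03 and 0.43, and most open points lie to the left of the filled ones, with 39 of 52 below 0.

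The clearest differences lay between libraries and not between genotypes. WT replicate 3 was the lowest of the 6 libraries for 37 of the 52 members, 13 of 14 in S phase, 20 of 29 in G2 and mitosis and 4 of 9 in G1 control, against 20.3% of all genes tested. The summed level of the G2 and mitosis members was 677, 706 and 272 in the WT and 372, 473 and 630.4 in the cKO libraries (FPKM). That of the S phase members was 563, 578 and 324 in the WT and 416, 471 and 508 in the cKO libraries (FPKM). The G1 control members differed less, with sums of 137, 147 and 120.2 in the WT and 137, 138 and 119 in the cKO libraries (FPKM). By these sums the S phase and mitosis members were highest in WT replicates 1 and 2, and lowest in WT replicate 3 and cKO replicate 1. The other S phase genes, described below, had their highest sum in cKO replicate 3. Per gene, the median log2 deviation of the G2 and mitosis members was 0.13, 0.46 and -0.68 in the WT and -0.40, 0.01 and 0.39 in the cKO libraries, so that cKO replicate 3 lay above WT replicate 1. The highest library was cKO replicate 3 for 14 of these 29 members, WT replicate 1 for 8 and WT replicate 2 for 6. Over all genes tested these 3 libraries were highest for 18.0%, 21.1% and 10.7%, so the count of WT replicate 1 was near its share. The typical SD of a G2 and mitosis member on the log2 scale was 0.55 in WT and 0.38 in cKO libraries, against 0.38 and 0.23 over all genes tested (medians over genes, n = 3 libraries each). For S phase members these SDs were 0.51 and 0.16, so the cKO libraries were close to each other in replication genes and apart in mitotic genes.

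**Figure D2:**
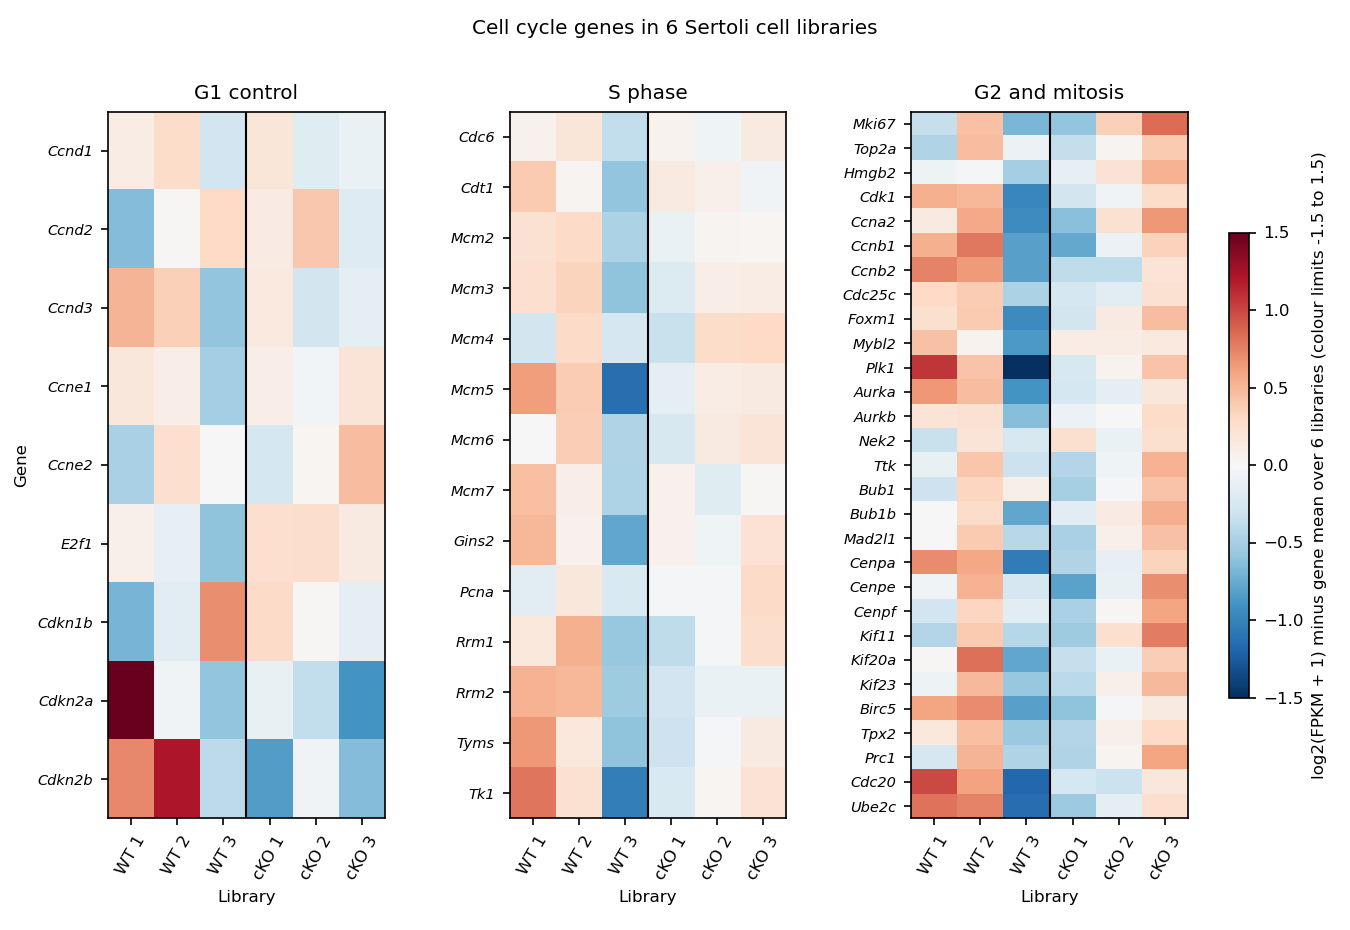
Each cell gives a member's log2(FPKM + 1) minus its mean over the 6 libraries (colour, limits -1.5 to 1.5), with genes in rows by phase and libraries in columns, WT left and cKO right of the black line. The column of WT replicate 3 holds the lowest value of 13 of 14 S phase members, and cKO replicate 3 is the highest library for 14 of 29 members of G2 and mitosis. Over all genes tested, WT replicate 3 was lowest for 20.3% and cKO replicate 3 highest for 18.0%.

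Among the genes of G1 control, the cyclins showed no common direction. Ccnd2, a D-type cyclin with a known role in growth of the gonads, had the highest mean of them, at 26.9, 43.4 and 53.1 FPKM in the WT and 46.6, 57.1 and 37.4 FPKM in the cKO libraries. Ccnd1, its relative, lay at 13.1, 14.7 and 9.63 FPKM in the WT and 13.8, 10.4 and 11.1 FPKM in the cKO libraries. Ccnd3 lay at 34.0, 30.3 and 15.2 FPKM in the WT and 26.1, 19.2 and 21.3 FPKM in the cKO libraries. Ccnd3 was above Ccnd2 in WT replicate 1. The ranges of the genotypes overlapped in all 3, although Ccnd3 was lower in every cKO library than in WT replicates 1 and 2. The E-type cyclins, which drive entry into S phase, were also interleaved. Ccne1 was at 11.8, 11.3 and 7.04 FPKM in the WT and 11.2, 10.1 and 12.04 FPKM in the cKO libraries. Ccne2 was at 3.75, 6.91 and 5.62 FPKM in the WT and 4.53, 5.79 and 8.16 FPKM in the cKO libraries.

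E2f1, the transcription factor that activates replication genes, was listed at 17.0, 14.7 and 10.3 FPKM in the WT and 19.3, 19.6 and 17.8 FPKM in the cKO libraries. Every cKO value lay above every WT value, by a margin of less than 1 FPKM between the nearest libraries. The means were 14.0 ± 3.45 FPKM in WT and 18.9 ± 0.994 FPKM in cKO cultures (SD, n = 3 per genotype), a log2 difference of 0.43 with an SE of 0.23 (limma, Benjamini-Hochberg adjusted p = 0.770). The difference did not pass the test, and it was the highest estimate of the 52.

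Of the 3 CDK inhibitors, Cdkn2b and Cdkn2a had the largest estimates of the 52 members. Cdkn2b, which encodes the p15 inhibitor of CDK4 and CDK6, was at 11.4, 16.4 and 4.71 FPKM in the WT and 3.19, 6.26 and 3.76 FPKM in the cKO libraries. WT replicates 1 and 2 were the high libraries, while WT replicate 3 lay within the range of the cKO libraries. The means were 10.8 ± 5.86 FPKM in WT and 4.40 ± 1.63 FPKM in cKO cultures (SD, n = 3 per genotype), a log2 difference of -1.03 with an SE of 0.43 (limma, Benjamini-Hochberg adjusted p = 0.727). Cdkn2a, its neighbour, which encodes p16 and, from another reading frame, p19ARF, was at 14.7, 2.71 and 1.55 FPKM in the WT and 2.55, 1.98 and 1.06 FPKM in the cKO libraries. Here 1 library, WT replicate 1, stood above all others, by 9.43-fold over WT replicate 3, and the other 5 lay between 1.06 and 2.71 FPKM. The Cdkn2a estimate was a log2 difference of -0.92 with an SE of 0.64 (limma, Benjamini-Hochberg adjusted p = 0.829), and without WT replicate 1 it was -0.14. Values over the whole gene cannot separate the p16 and p19ARF transcripts. Cdkn1b, which encodes the p27 inhibitor that accumulates as Sertoli cells stop dividing, went the other way across libraries, with 4.31, 6.71 and 13.1 FPKM in the WT and 9.58, 7.79 and 6.81 FPKM in the cKO libraries. It was highest in WT replicate 3 and lowest in WT replicate 1, and the groups overlapped.

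**Figure D3:**
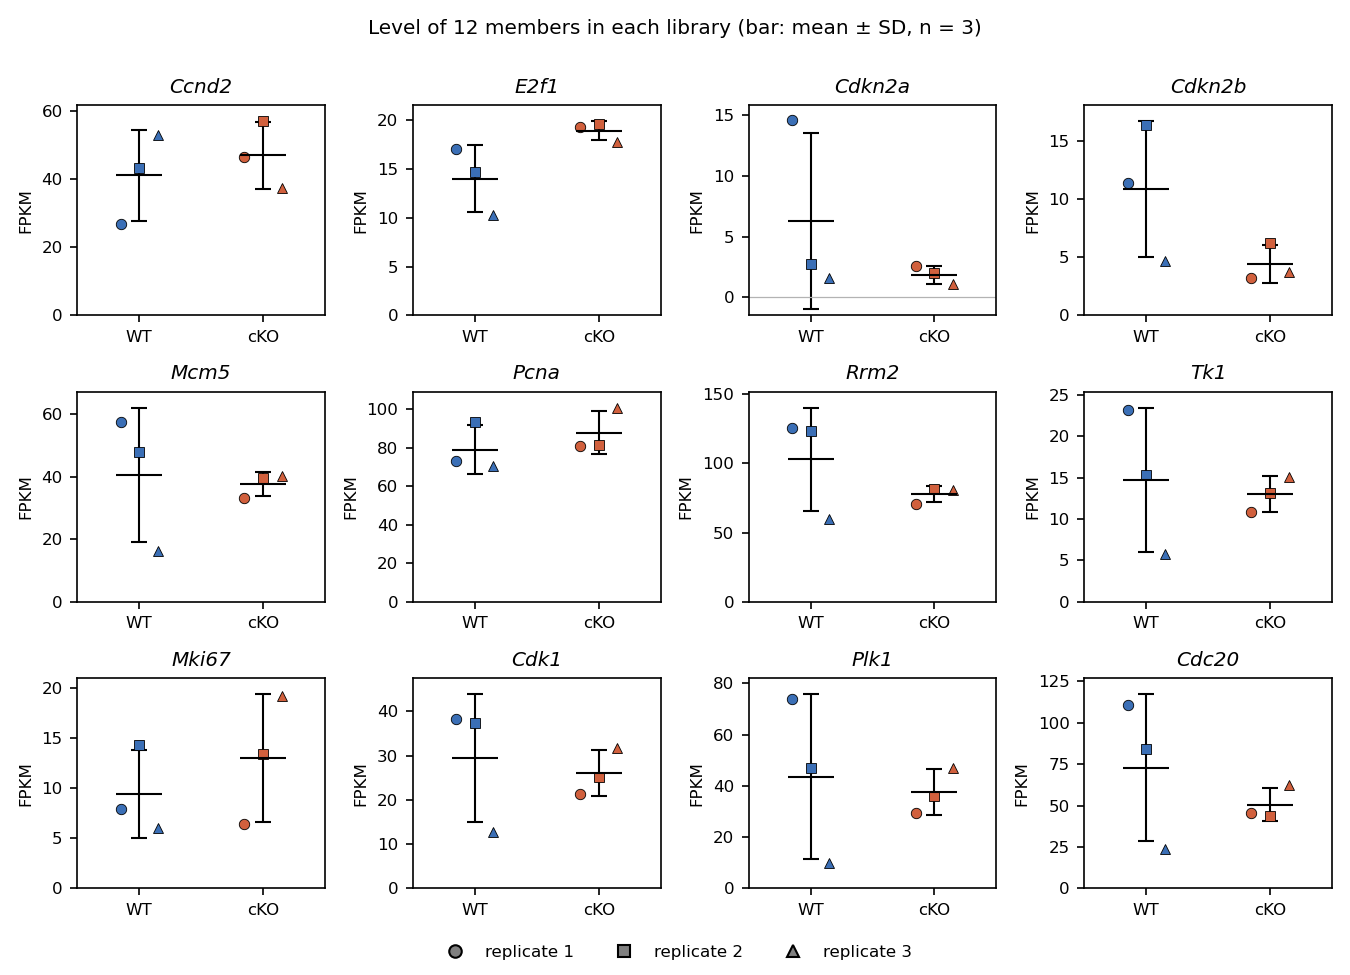
FPKM (vertical axis, linear) of 12 members in WT and cKO libraries; each symbol is 1 library, its shape gives the replicate number, and bars are the mean ± SD of 3. For Mcm5, Rrm2, Cdk1, Plk1 and Cdc20 the triangle of WT replicate 3 is the lowest point, and for E2f1 all cKO points lie above all WT points.

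In S phase, the genes that license origins were lowest in WT replicate 3, apart from Mcm4, and otherwise differed in library order. The 6 MCM genes encode the subunits of the replicative helicase. Mcm5 was at 57.4, 48.1 and 16.3 FPKM in the WT and 33.4, 39.7 and 40.4 FPKM in the cKO libraries. Mcm3 was at 47.6, 50.5 and 25.8 FPKM in the WT and 34.5, 42.8 and 43.1 FPKM in the cKO libraries. Mcm2 was at 23.4, 24.4 and 13.9 FPKM in the WT and 18.3, 20.4 and 20.1 FPKM in the cKO libraries. In each, WT replicates 1 and 2 were the highest, WT replicate 3 the lowest, and the cKO libraries lay between. Mcm7 was at 52.3, 40.6 and 27.3 FPKM in the WT and 39.6, 33.2 and 38.4 FPKM in the cKO libraries. Mcm6 was at 41.4, 54.0 and 30.0 FPKM in the WT and 35.1, 45.6 and 47.8 FPKM in the cKO libraries. WT replicate 3 was again the lowest in both. Mcm4, at 29.5, 44.0 and 29.9 FPKM in the WT and 28.2, 43.7 and 44.2 FPKM in the cKO libraries, was the S phase member whose lowest library was cKO replicate 1 and not WT replicate 3. Cdc6 and Cdt1 bring the helicase to origins. Cdc6 was at 6.49, 7.15 and 4.56 FPKM in the WT and 6.44, 5.84 and 6.88 FPKM in the cKO libraries. Cdt1 was at 26.9, 20.9 and 13.1 FPKM in the WT and 22.3, 21.5 and 19.5 FPKM in the cKO libraries. Gins2, a subunit of the GINS part of the helicase, lay at 10.8, 7.72 and 3.87 FPKM in the WT and 7.69, 7.01 and 8.71 FPKM in the cKO libraries, with the groups overlapping.

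Pcna, the sliding clamp of the replicative polymerases, was among the most abundant and the least variable members, at 73.4, 93.4 and 70.3 FPKM in the WT and 81.0, 81.6 and 101 FPKM in the cKO libraries. The genes of nucleotide supply were more uneven. Rrm2, the regulated subunit of ribonucleotide reductase, was at 126, 123 and 60.1 FPKM in the WT and 70.8, 81.3 and 81.0 FPKM in the cKO libraries. All cKO libraries lay below WT replicates 1 and 2 and above WT replicate 3. The means were 103 ± 37.1 FPKM in WT and 77.7 ± 5.95 FPKM in cKO cultures (SD, n = 3 per genotype), a log2 difference of -0.33 with an SE of 0.31 (limma, Benjamini-Hochberg adjusted p = 0.880). The difference did not pass the test. Rrm1, the large subunit, was at 29.0, 37.8 and 17.1 FPKM in the WT and 19.6, 25.4 and 31.1 FPKM in the cKO libraries. Tk1, thymidine kinase, was at 23.1, 15.3 and 5.75 FPKM in the WT and 10.8, 13.2 and 15.1 FPKM in the cKO libraries. Tyms, thymidylate synthase, was at 16.2, 11.3 and 6.22 FPKM in the WT and 7.87, 9.85 and 11.0 FPKM in the cKO libraries. Both were highest in WT replicate 1 and lowest in WT replicate 3.

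Among the drivers of mitotic entry, the same libraries were high. Cdk1, the kinase that starts mitosis, was at 38.3, 37.3 and 12.7 FPKM in the WT and 21.4, 25.1 and 31.7 FPKM in the cKO libraries. Its B-type cyclin partner Ccnb1 was at 36.9, 44.4 and 13.8 FPKM in the WT and 14.4, 23.5 and 32.3 FPKM in the cKO libraries. Ccnb2, the other, was at 50.1, 46.8 and 16.4 FPKM in the WT and 22.4, 22.6 and 34.3 FPKM in the cKO libraries. In all 3 genes WT replicates 1 and 2 were the highest libraries and WT replicate 3 the lowest, and the cKO values fell inside the WT range. The Ccnb1 estimate was a log2 difference of -0.34 with an SE of 0.47 (limma, Benjamini-Hochberg adjusted p = 0.908). The Ccnb2 estimate was a log2 difference of -0.37 with an SE of 0.43 (limma, Benjamini-Hochberg adjusted p = 0.898). Neither passed the test. Ccna2, the cyclin of S phase and G2, had its highest value in cKO replicate 3, at 23.8, 32.6 and 10.7 FPKM in the WT and 13.6, 25.6 and 34.4 FPKM in the cKO libraries. Cdc25c, the phosphatase that activates CDK1, was low throughout, at 2.88, 3.09 and 1.26 FPKM in the WT and 1.63, 1.79 and 2.70 FPKM in the cKO libraries. Foxm1 and Mybl2 encode factors that switch on this wave. Foxm1 was at 13.7, 15.4 and 5.44 FPKM in the WT and 9.33, 12.7 and 16.1 FPKM in the cKO libraries. Mybl2 was at 8.31, 6.12 and 2.78 FPKM in the WT and 6.404, 6.39 and 6.61 FPKM in the cKO libraries. Each was lowest in WT replicate 3.

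The mitotic kinases differed between libraries, with Plk1 the most uneven of the G2 and mitosis members. Plk1, which acts at centrosomes, kinetochores and in cytokinesis, was at 73.9, 47.1 and 9.76 FPKM in the WT and 29.3, 36.2 and 47.0 FPKM in the cKO libraries, a 7.58-fold range within the WT libraries alone. WT replicate 1 was the highest and WT replicate 3 the lowest of all 6, with every cKO library between them. The lowest of these values rested on 436 fragments, with an exact Poisson 95% interval of 8.86 to 10.7 FPKM that covers counting error only. The estimate was a log2 difference of 0.16 with an SE of 0.66 (limma, Benjamini-Hochberg adjusted p = 0.971). Aurka, the spindle pole kinase, was at 38.2, 33.3 and 12.4 FPKM in the WT and 19.7, 21.7 and 27.1 FPKM in the cKO libraries. Aurkb, the kinase of the chromosomal passenger complex, was at 22.3, 22.8 and 11.98 FPKM in the WT and 18.1, 19.4 and 23.6 FPKM in the cKO libraries. Both Aurora kinases had their lowest level in WT replicate 3. Birc5, which encodes survivin of the same complex, was at 25.6, 27.9 and 9.01 FPKM in the WT and 10.6, 16.4 and 18.4 FPKM in the cKO libraries. Its estimate was a log2 difference of -0.33 with an SE of 0.43 (limma, Benjamini-Hochberg adjusted p = 0.906). It too was lowest in WT replicate 3, and the groups overlapped. Nek2, a centrosome kinase, was an exception to the common profile at 6.12, 9.21 and 6.56 FPKM in the WT and 9.56, 7.32 and 9.54 FPKM in the cKO libraries, with its lowest value in WT replicate 1 and its highest in cKO replicate 1.

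Most checkpoint and kinetochore genes fell into a second profile, in which cKO replicate 3 was the highest library. Bub1b, which encodes the checkpoint kinase BUBR1, was at 11.5, 14.1 and 6.28 FPKM in the WT and 10.1, 12.6 and 17.2 FPKM in the cKO libraries. Its estimate was a log2 difference of 0.33 with an SE of 0.33 (limma, Benjamini-Hochberg adjusted p = 0.883). The other checkpoint genes were spread in the same way. Ttk, the MPS1 kinase, was at 3.20, 5.01 and 2.61 FPKM in the WT and 2.34, 3.34 and 5.49 FPKM in the cKO libraries. Mad2l1 was at 6.22, 8.56 and 4.43 FPKM in the WT and 4.19, 6.67 and 8.83 FPKM in the cKO libraries. Bub1 was at 7.41, 12.02 and 10.1 FPKM in the WT and 6.399, 9.22 and 13.0 FPKM in the cKO libraries. These 3 genes had cKO replicate 3 as the highest and cKO replicate 1 as the lowest library. Cenpe, a kinetochore motor, was at 3.55, 5.73 and 2.94 FPKM in the WT and 1.71, 3.34 and 6.65 FPKM in the cKO libraries. Cenpf, another kinetochore protein, was at 1.21, 2.38 and 1.42 FPKM in the WT and 0.929, 1.74 and 3.05 FPKM in the cKO libraries. Cenpa, the histone variant of centromeres, kept to the first profile, at 12.8, 11.5 and 3.07 FPKM in the WT and 5.12, 6.73 and 9.56 FPKM in the cKO libraries.

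Part of the spindle motors and midzone proteins followed the second profile. Kif11, the motor that separates spindle poles, was at 4.29, 8.38 and 4.33 FPKM in the WT and 3.94, 7.45 and 11.1 FPKM in the cKO libraries. Its estimate was a log2 difference of 0.31 with an SE of 0.39 (limma, Benjamini-Hochberg adjusted p = 0.903). Without cKO replicate 3 it was 0.01, and without cKO replicate 1 it was 0.66. Prc1 bundles microtubules of the midzone and Kif23 is a motor there. Prc1 was at 10.3, 18.1 and 8.90 FPKM in the WT and 8.90, 12.9 and 19.4 FPKM in the cKO libraries. Kif23 was at 4.06, 6.48 and 2.59 FPKM in the WT and 3.05, 4.64 and 6.49 FPKM in the cKO libraries. For Kif11, Prc1 and Kif23 cKO replicate 3 was the highest library. Tpx2, a spindle assembly factor, was at 28.9, 35.8 and 17.3 FPKM in the WT and 18.9, 27.4 and 31.9 FPKM in the cKO libraries. Kif20a, a cytokinesis motor, was at 14.4, 25.9 and 7.88 FPKM in the WT and 11.0, 13.2 and 18.6 FPKM in the cKO libraries. For both of these WT replicate 2 was the highest library.

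The genes most used as proliferation markers did not share a library order. Mki67, the Ki-67 antigen, was at 7.89, 14.3 and 6.04 FPKM in the WT and 6.48, 13.4 and 19.2 FPKM in the cKO libraries. Its estimate was a log2 difference of 0.39 with an SE of 0.43 (limma, Benjamini-Hochberg adjusted p = 0.896). The groups overlapped. Top2a, which untangles sister chromatids, was at 20.9, 40.3 and 27.3 FPKM in the WT and 22.3, 29.8 and 38.3 FPKM in the cKO libraries. Hmgb2, a chromatin protein of dividing cells, was at 17.0, 17.6 and 12.3 FPKM in the WT and 16.4, 21.1 and 26.3 FPKM in the cKO libraries. Its estimate was a log2 difference of 0.41 with an SE of 0.25 (limma, Benjamini-Hochberg adjusted p = 0.792). Ki-67 and Hmgb2 transcripts were highest in cKO replicate 3, and Top2a in WT replicate 2. By contrast Cdc20, the activator of the anaphase-promoting complex, was at 111, 83.9 and 23.8 FPKM in the WT and 45.7, 43.8 and 62.4 FPKM in the cKO libraries. Ube2c, the ubiquitin-conjugating enzyme of that complex, was at 73.0, 69.4 and 18.0 FPKM in the WT and 27.8, 36.9 and 49.0 FPKM in the cKO libraries. Both were highest in WT replicate 1 and lowest in WT replicate 3, and every cKO library lay below WT replicates 1 and 2. The Cdc20 estimate was a log2 difference of -0.28 with an SE of 0.53 (limma, Benjamini-Hochberg adjusted p = 0.937). Mki67 and Cdc20 thus gave estimates of opposite sign from the same 6 libraries, and neither passed the test.

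The library order of the mitotic genes varied with the base composition of their transcripts. Among the 29 members of G2 and mitosis, the log2 difference between WT replicate 1 and WT replicate 2, which are libraries of 1 genotype, was larger at higher GC content (Pearson's r = 0.76, Spearman's rho = 0.75) and smaller at greater logarithm of exonic length (r = -0.72). The points are genes measured in the same 2 libraries and are not independent, so these are descriptions. All 15 members with a GC content of 40.6% to 47.7% were lower in WT replicate 1 than in WT replicate 2 (median -0.56), and 8 of the 14 with 48.3% to 56.1% were higher (median 0.06). The second profile, with cKO replicate 3 as the highest library, held for 11 of the 15 members of lower GC content. It held for 3 of the 14 of higher GC content, near the 18.0% of all genes tested that were highest in cKO replicate 3. The parts of role and of base composition in this profile were not separated. The difference between cKO replicate 3 and cKO replicate 1 went the opposite way with GC content, at r = -0.62. Over 12244 genes with a GC value, the difference between WT replicates 1 and 2 gave r = 0.52, so the relation was not limited to cell cycle genes. A correction for GC content and length, fitted on all genes, was chosen after seeing the data. With it, WT replicate 3 was the lowest library for 26 of 29 members of G2 and mitosis and for 14 of 14 of S phase. Over all genes it was the lowest for 2317 of 12244. The lowest library was cKO replicate 1 for 2 members of G2 and mitosis, against 7 without the correction, and no member passed the test. The part of base composition in the levels of single genes was not tested further.

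**Figure D4:**
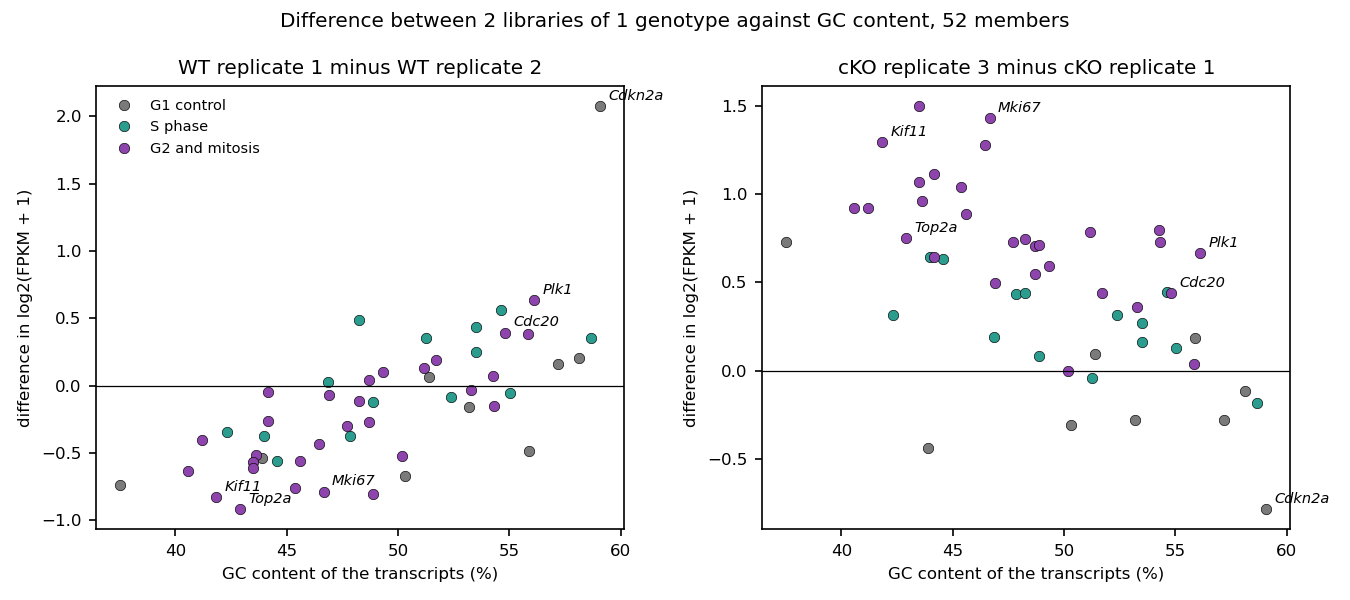
Difference in log2(FPKM + 1) between 2 libraries of 1 genotype (vertical axis) against the GC content of the transcripts in percent (horizontal axis) for the 52 members, coloured by phase; left, WT replicate 1 minus WT replicate 2; right, cKO replicate 3 minus cKO replicate 1. In the left panel the points climb with GC content and in the right panel they descend, with r = 0.76 and -0.62 among the 29 members of G2 and mitosis.

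Without WT replicate 3, 1 of the 52 members was called, and it was lower in cKO libraries, where 1.42% of all genes tested were called lower. This was Cdkn2b, with a log2 difference of -1.48 (adjusted p = 0.0470) in limma with 2 WT and 3 cKO libraries. At an unadjusted p under 0.05, 14 members were lower and 0 higher, against 8.05% of all genes lower. WT replicate 3 was the lowest library for 37 of the 52 members, against 20.3% of all genes tested. Leaving it out raises the WT mean of those 37 members and so lowers their estimates. All 3 cKO values lay below both WT replicates 1 and 2 in 20 members, 3 of G1 control, 7 of S phase and 10 of G2 and mitosis, against 15.5% of all genes. The differences for Cdc20, Rrm2, Ccnb2 and Ube2c were then -0.93 (adjusted p = 0.0787), -0.67 (adjusted p = 0.0888), -0.88 (adjusted p = 0.0946) and -0.93 (adjusted p = 0.0997), below 0 and short of the threshold. The medians were -0.06 in G1 control, -0.28 in S phase and -0.21 in G2 and mitosis, beside 0.11 over all genes tested. For the other cell cycle genes, described below, they were 0.07 in G1 control, 0.01 in S phase and -0.18 in G2 and mitosis. The S phase shift of the members was thus not seen in the other S phase genes. With all 6 libraries the medians of the S phase and the G2 and mitosis members were close to 0. Their sign also turned in other settings. Without cKO replicate 3 they were -0.03 and -0.19, and the G2 and mitosis median was -0.05 with quantile normalization and -0.05 with the GC and length correction. No direction can be given for these groups.

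Markers of other cell types also differed between the libraries. All 10 myoid and contractile markers, led by Acta2, passed the filter and none was at 0. They summed to 4069, 3139.9 and 703 in the WT and 1012, 1128 and 1727 in the cKO libraries (FPKM). The sum was lowest in WT replicate 3, as was that of the G2 and mitosis members. Per gene the order was another one, with median log2 deviations of 0.87, 0.68 and -0.60 in the WT and -0.43, -0.67 and 0.28 in the cKO libraries, and cKO replicate 2 was the lowest library for 5 of the 10 markers against 3 for WT replicate 3. Macrophage markers, led by Lyz2, were also high in WT replicates 1 and 2, with 13 of 15 past the filter and none at 0. They summed to 1339.5, 1092 and 306 in the WT and 334, 182 and 254 in the cKO libraries (FPKM). The 22 Sertoli markers, of which 19 passed, went the opposite way in the WT libraries by their sums. These were 411, 384 and 1189 in the WT and 1023, 839 and 1199 in the cKO libraries (FPKM). Per gene, the highest library was WT replicate 3 for 8 of the 19, WT replicate 1 for 3 and WT replicate 2 for 1. WT replicate 3 was the lowest library for 2. Estimates were higher in cKO libraries for 15 markers and lower for 4. Of the Sertoli markers, Fshr was at 0 in WT replicates 1 and 2, and Rhox8 in WT replicate 2 and cKO replicate 2. The 20 markers of spermatogonia and spermatocytes, of which 8 passed the filter, were highest in WT replicate 3 and cKO replicate 1, the libraries that were lowest for 27 of the 29 members of G2 and mitosis. Their sums were 47.0, 36.8 and 362 in the WT and 324, 104 and 130.0 in the cKO libraries (FPKM), and without Uchl1, the most abundant of them, 6.59, 11.9 and 188 in the WT and 187, 10.4 and 19.4 in the cKO libraries (FPKM). Stra8, Sall4 and Dmc1 were at 0 in WT replicate 1, and Ccna1 in cKO replicates 2 and 3. Spermatid markers, 11 of 14 past the filter, were also highest in these 2 libraries, at 155, 71.1 and 252 in the WT and 397, 63.1 and 21.4 in the cKO libraries (FPKM). Fibroblast markers summed to 951, 1341 and 652 in the WT and 773, 721 and 1134 in the cKO libraries (FPKM). Endothelial markers summed to 105 to 182 FPKM, and per gene their median log2 deviations were -0.73, -1.001 and 0.34 in the WT and 0.99, -0.0024 and 0.39 in the cKO libraries. WT replicate 2 was the lowest library for 8 of the 10 endothelial markers tested, and 9 of the 10 had higher estimates in cKO libraries (median 0.83). Leydig cell markers summed to 228 to 427 FPKM, and erythroid markers reached no more than 0.689 FPKM in any library. The part of these cell types in the levels of the cell cycle genes was not tested.

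**Figure D5:**
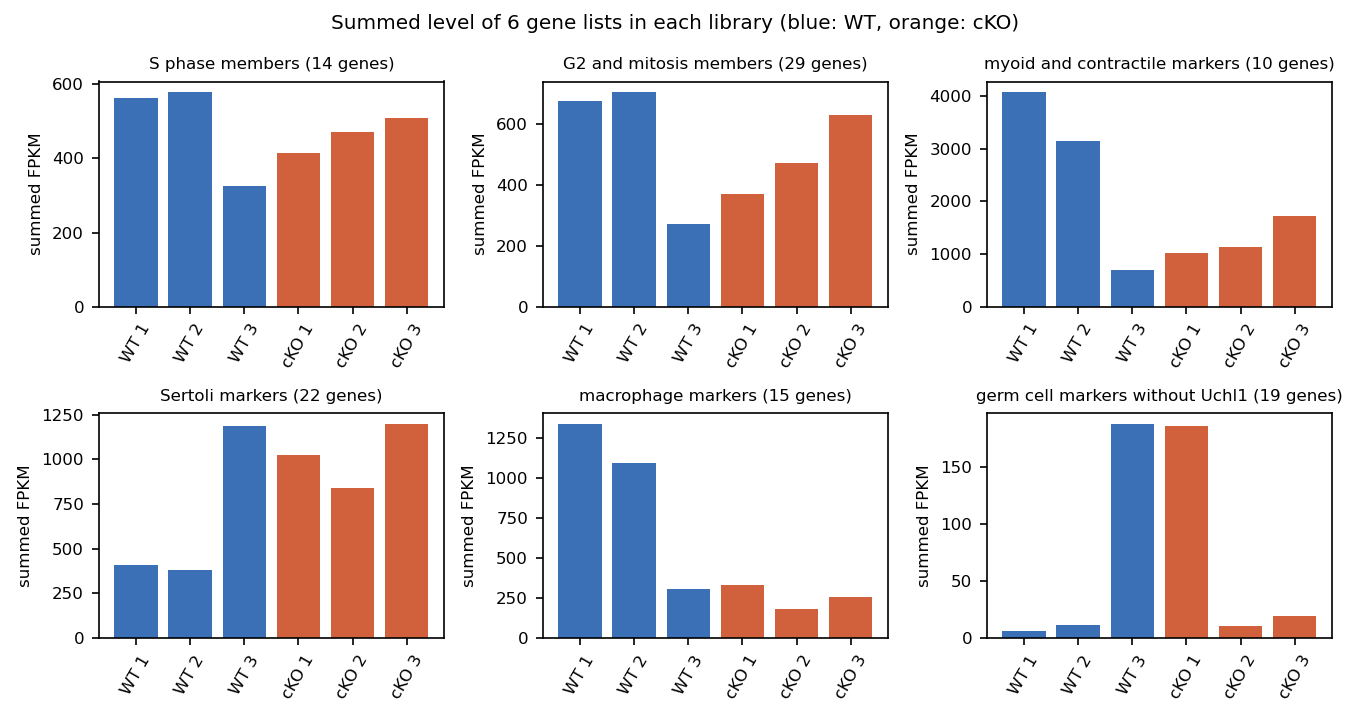
Summed FPKM (vertical axis, linear from 0) of 6 gene lists in each of the 6 libraries (horizontal axis), WT in blue and cKO in orange. The summed mitotic members and summed myoid markers, the latter led by Acta2, are lowest in WT replicate 3, Sertoli markers are lowest in WT replicates 1 and 2, and germ cell markers without Uchl1 reach 188 and 187 FPKM in WT replicate 3 and cKO replicate 1.

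The balance between the phases also differed by library. The summed level of G2 and mitosis members divided by that of S phase members was 1.20, 1.22 and 0.839 in the WT and 0.894, 1.00 and 1.24 in the cKO libraries. By the median deviation per gene, mitotic minus S phase members, the values were -0.19, 0.20 and -0.14 in the WT and -0.23, 0.00 and 0.26 in the cKO libraries on the log2 scale. The sums, carried by abundant genes, put WT replicate 1 among the high libraries and the values per gene put it among the low ones. The genotypes overlapped in both measures.

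Outside the 52 members, 131 other cell cycle genes were followed, of which 127 passed the filter. Of these, 0 were called in either direction, and 0 had an unadjusted p under 0.05, against 6.81% of all genes tested. The median log2 difference was 0.10 for 21 tested genes of G1 control, 0.10 for 34 of S phase and 0.03 for 72 of G2 and mitosis. The 35 other S phase genes summed to 359, 374 and 283 in WT and 320, 354 and 406 in cKO libraries (FPKM). The 73 other G2 and mitosis genes summed to 1407, 1437 and 827 in WT and 1036, 1108 and 1365 in cKO libraries (FPKM). Of the 34 S phase genes tested, cKO replicate 3 was the highest library for 18, against 18.0% of all genes. WT replicate 3 was the lowest for 16, against 20.3% of all genes. The 3 genes with the smallest p in each list were E2f8, E2f6 and Cdk6, then Timeless, Dnmt1 and Chaf1a, then Wee1, Hjurp and Cit. E2f8, an atypical E2F that represses the E2F programme, was at 2.28, 2.35 and 1.01 FPKM in the WT and 2.65, 3.27 and 4.70 FPKM in the cKO libraries, with cKO values above all WT values. E2f6, another repressor of the family, was at 12.4, 14.9 and 8.88 FPKM in the WT and 7.01, 6.75 and 9.82 FPKM in the cKO libraries, with overlap. Timeless, a protein of the replication fork, was at 2.66, 4.02 and 3.20 FPKM in the WT and 4.32, 5.05 and 4.98 FPKM in the cKO libraries. Dnmt1, the maintenance DNA methyltransferase, was at 25.2, 27.9 and 20.2 FPKM in the WT and 29.5, 31.7 and 33.4 FPKM in the cKO libraries. Cit, the citron kinase of cytokinesis, was at 1.31, 1.20 and 0.941 FPKM in the WT and 1.73, 1.66 and 1.76 FPKM in the cKO libraries. In these 3 the cKO values lay above all WT values. They and E2f8 were picked for a small p, which favours groups that do not overlap. Over all genes tested, the groups did not overlap in 11.3%. The smallest adjusted p among the 127 genes was 0.736 (limma). Cdk6, the partner of D-type cyclins, was at 0.991, 1.07 and 1.74 FPKM in the WT and 1.35, 3.13 and 2.29 FPKM in the cKO libraries. Wee1, the kinase that holds CDK1 inactive, was at 8.64, 11.0 and 8.89 FPKM in the WT and 10.5, 13.1 and 16.5 FPKM in the cKO libraries. Both had overlapping groups. Chaf1a, a histone chaperone of replication, was at 4.75, 5.84 and 2.95 FPKM in the WT and 5.97, 5.73 and 6.10 FPKM in the cKO libraries. Hjurp, the chaperone of the centromeric histone, was at 15.6, 17.1 and 19.0 FPKM in the WT and 18.4, 24.8 and 23.5 FPKM in the cKO libraries. Their groups overlapped too. Without WT replicate 3, 1 of the 127 was called, Cdkn3, a phosphatase of CDKs, which was lower in cKO libraries at a log2 difference of -1.17 (adjusted p = 0.0490) in limma. In that setting 1.42% of all genes tested were called lower. Cdkn3 was picked out after its values had been seen.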

How the data were processed

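Expression was measured by RNA sequencing in 6 Sertoli cell cultures, grouped by the genotype label. The submitters' processing notes name FastQC, HISAT2 2.1.0 and the build mm8. How genes were counted, on which annotation and strand, is not given in those sources. The authors deposited 1 value per gene and library without a unit. The deposited values were read as FPKM because, multiplied by exonic length from GENCODE M21, they came out as whole fragments (311 of 312 member values, within 0.3 fragment). The gene identifiers are later than mm8, so that build is in doubt and no coordinates of the files were used. Antisense transcripts cannot be separated without a strand setting. Pseudogene copies of Ccnd3, Ccnb1, Ccnb2 and Pcna can share fragments with their parents.

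Values entered the fit as log2(FPKM + 1), which understates the change of low genes, after a filter of 1 FPKM in 3 or more libraries that kept 12284 genes. The fit used limma 3.58.1 in R 4.3.3, with a mean-variance trend, genotype alone and two-sided p-values adjusted by Benjamini-Hochberg over all genes kept. It was tested on simulated data with 200 changed genes. Members and lists were chosen with earlier results of these data known. All members were named, with the 3 genes of smallest p in each list of other cell cycle genes and up to 3 abundant markers per cell type. Other markers, and those at 0, were picked out after their values had been seen. The alternatives changed the filter, the pseudocount (0.1 or 5), the scaling (median-ratio or quantile) and the library weights, added the replicate number as a block, or left out 1 library at a time. A correction for GC content and length was chosen after seeing the data. The deviations of same-numbered WT and cKO libraries correlated at 0.14, 0.03 and -0.21, and those of unlike numbers at -0.45 to 0.48. These correlations cannot decide whether the numbers pair the cultures, as unlike numbers gave the values furthest from 0. Tables and figures were made in Python 3.11.15.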

Additional observations from a re-analysis of the deposited data

How the results depend on the processing

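No member passed the threshold with any filter, pseudocount, scaling, array weights or GC and length correction, or with the replicate block. Leaving out each library in turn gave 0 to 1 members, the 1 being Cdkn2b without WT replicate 3 (log2 difference -1.48, adjusted p = 0.0470, range over its alternatives 0.0470 to 1.00). Over all genes the count was 2, and it was 0 with no filter on low values, 0 with the replicate block and 0 to 478 with 1 library left out, the highest without WT replicate 3. Whether the replicate numbers pair the libraries is not known. The Plk1 estimate, 0.16 with all libraries, ran from -0.67 without WT replicate 3 to 0.73 without WT replicate 1, and was -0.01 without cKO replicate 3. The Cdc20 estimate, -0.28 with all libraries, ran from -0.93 without WT replicate 3 to 0.15 without WT replicate 1. With 1 library left out, estimates ran from -1.45 to -0.14 for Cdkn2a, 0.01 to 0.66 for Kif11, -0.83 to -0.03 for Ccnb1, -0.88 to -0.10 for Ccnb2, -0.82 to -0.05 for Birc5, -0.67 to -0.15 for Rrm2, 0.07 to 0.79 for Mki67, 0.03 to 0.55 for Bub1b, 0.26 to 0.58 for Hmgb2 and 0.24 to 0.58 for E2f1. Cdkn2a had no value under the filter of 5 FPKM. The median differences of the 3 phases stayed within 1 SD of the spread between libraries of 1 genotype (0.23 for G1 control, 0.36 for S phase, 0.50 for G2 and mitosis), but their signs were not stable. These SDs describe single libraries, WT replicate 3 among them, and not the spread of a difference between genotypes, so they allow wide shifts. The G1 median turned with quantile normalization (-0.03) and without WT replicate 1 (-0.05), WT replicate 3 (-0.06), cKO replicate 1 (-0.01) or cKO replicate 3 (-0.03). The S phase median turned with median-ratio scaling (-0.04) and without WT replicate 3 (-0.28) or cKO replicate 3 (-0.03). The G2 and mitosis median turned with median-ratio scaling (-0.04), quantile normalization (-0.05), the GC and length correction (-0.05) and without WT replicate 3 (-0.21) or cKO replicate 3 (-0.19). Where a call or sign changed, the cause was not tested. Fits with 1 library left out also had fewer libraries, and the part of this was not tested either. On simulated data with 3 libraries per genotype, the test recovered 0% of 200 genes changed 2-fold. Recovery was not simulated for the members alone, whose median SE was 0.33, against 0.27 over all genes tested. The array weights did not fully converge.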
